A study of Mus musculus with 12 samples.

Results

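The genes described here are 10 members of the AP-1 transcription factor family and of the immediate early response: Fos, Fosb, Fosl1, Fosl2, Jun, Junb, Jund, Egr1, Ier2 and Atf3. They were taken by gene symbol from a table of read counts for 25861 genes. All 10 were in the table and all 10 had enough counts to be tested, among 17025 tested genes. Only Egr1 passed the test, in 1 of the 4 comparisons: it was higher with the second hairpin against Cldn7 than in the control. In that comparison 5.76% of all tested genes passed. Fos, Fosb, Jun, Junb, Egr1 and Ier2 lay higher with the second hairpin than with the first in every replicate. These were 6 of 10 genes, beside 15.6% of all tested genes, and 0 passed the test between the hairpins. The 6 genes also varied together, so they are not 6 separate observations.

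RNA was sequenced from organoids, small pieces of primary mammary tumour cultured in 3D. The tumours arose in MMTV-Neu mice, whose Neu (Erbb2) oncogene is driven in mammary epithelium by a viral promoter, MMTV. All 12 libraries came from organoids infected with lentivirus at a multiplicity of infection of 20, selected with puromycin (3 µg/ml for 3 days) and kept in collagen I for 5 days in medium with 2.5 nM FGF2, a growth factor. The groups were shControl with a non-targeting hairpin, whose genotype label is WT (here the control), sh1Cldn7 (hairpin 1) and sh2Cldn7 (hairpin 2), with 4 libraries each, numbered 1 to 4; Cldn7 encodes claudin 7, a tight junction protein, and the study asked for its role in invasion and metastasis. The labels give no age, and no animal or culture of origin for any library. The p-values below therefore reflect the spread among these samples alone, and that spread may be technical. Infected organoids are pools of cells, and fewer cells of a type cannot be told apart from less RNA per cell.

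AP-1 is a dimer of basic leucine zipper proteins. JUN proteins pair with each other or with FOS proteins, FOS proteins need a JUN partner, and ATF3 can pair with JUN proteins. Fos, Fosb, Jun, Junb, Egr1, Ier2 and Atf3 are immediate early genes: growth factors and stress switch them on within minutes through kinases such as ERK and JNK, with no new protein needed, and their RNA is short-lived. Fosl1 and Fosl2 usually follow later, and Jund is expressed more steadily. In mammary and other epithelia AP-1 is known for roles in proliferation, wound closure and invasion.

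Promoter bases are shown for Fos and Fosb, whose levels varied most alike of all pairs of the 10 genes, and for Jun, the 1 gene whose hairpin 2 libraries did not overlap the other groups. RefSeq promoters of GRCm38.p6, reaching from 250 bases before to 50 after the start, were found for 7 of the 10. The windows are the 100 bases before the start, 5′ to 3′ on the gene's strand, of the reference strain and not of these tumours: chr12:85473790-85473889 on the plus strand for Fos, chr7:19310046-19310145 on the minus strand for Fosb and chr4:95052223-95052322 on the minus strand for Jun. Capitals mark TGACG, the front part of the cyclic AMP response element TGACGTCA, and TGACATCA, a variant of that element.
Fos: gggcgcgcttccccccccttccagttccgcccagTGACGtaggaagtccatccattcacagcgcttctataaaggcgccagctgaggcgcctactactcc
Fosb: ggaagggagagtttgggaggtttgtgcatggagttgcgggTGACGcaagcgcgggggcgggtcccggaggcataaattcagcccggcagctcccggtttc
Jun: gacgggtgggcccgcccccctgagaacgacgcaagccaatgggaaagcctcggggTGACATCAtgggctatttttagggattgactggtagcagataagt
TGACG began 66 bases before the start in Fos and 60 bases before it in Fosb. TGACATCA began 45 bases before the start in Jun. Searched on both strands over the whole RefSeq promoters, TGACG, which TGACGTCA contains, stood in 4 of the 7 promoters (Fos, Fosb, Junb and Atf3) and in 20.8% of 32851 promoters in all. TGACATCA stood in Jun alone of the 7 and in 3.62% of all promoters, and the full TGACGTCA in 0 of the 7 and 1.79% of all. The AP-1 site TGAGTCA was searched too and stood in 0 of the 7 and 5.2% of all. A match is a run of letters and not a measured binding site.

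On GRCm38, GENCODE M21 places Fos at chromosome 12, 85473890 to 85477273 (plus strand), Fosb at chromosome 7, 19302696 to 19310051 (minus), and Jun at chromosome 4, 95049034 to 95052222 (minus). Junb (84974484 to 84978718, minus), Ier2 (84661331 to 84662852, minus) and Jund (70698949 to 70700616, plus) share chromosome 8. Fosl1 lies on chromosome 19, 5447547 to 5455946 (plus), Fosl2 on chromosome 5, 32135801 to 32157842 (plus), and Atf3 on chromosome 1, 191170296 to 191218039 (minus). All are protein-coding genes, and counts were summed over a gene, not per exon or UTR.

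Total counts ran from 34988358 to 76329473 per library, and were higher in replicates 3 and 4 (68581024 to 76329473) than in replicates 1 and 2 (34988358 to 44645514) of every group. Values are CPM, counts relative to the library total after scaling by the trimmed mean of M-values. Cldn7 stood at 101 to 186 CPM in the control, 29.0 to 44.2 with hairpin 1 and 25.4 to 34.7 with hairpin 2, so that neither hairpin group overlapped the control. The epithelial genes Krt8 and Epcam stood at 603 to 1323 and 802 to 1857 CPM over all libraries, so these genes of the labelled epithelial cells were present throughout. Ptprc, which marks leukocytes of every kind, ran from 2.18 to 9.21 CPM in replicates 1 and 2 and from 0 to 0.179 in replicates 3 and 4. Since libraries with the same number varied together, differences were fitted with the replicate number in the model (edgeR's quasi-likelihood test, Benjamini-Hochberg adjustment over all 17025 genes, threshold 0.05). A model without it called 0 of the 10 genes in any comparison and 1 gene of all in each comparison.

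Levels between genes are compared as CPM per kilobase of exon, since a longer transcript gives more reads. Jund was the highest of the 10 with a mean of 224 ± 70.3 CPM per kilobase (SD, n = 12), above Junb in 12 of 12 libraries. Next came Junb (107 ± 16.2), Ier2 (94.9 ± 24.6), Jun (81.7 ± 12.6) and Fos (78.2 ± 33.3, SD, n = 12 each). Neighbours in that order did not separate: Junb lay above Ier2 in 10 of 12 libraries, Ier2 above Jun in 7 and Jun above Fos in 8. Egr1, a zinc finger factor of the same early response, had 45.5 ± 12.3 and lay below Fos in 12 of 12 libraries. Fosl2 had 14.9 ± 2.42, Atf3 8.46 ± 2.01 and Fosb 7.56 ± 3.19 CPM per kilobase (SD, n = 12 each), and Atf3 lay above Fosb in 8 of 12 libraries only. Fosl1 was the lowest with 2.26 ± 1.90 CPM per kilobase (SD, n = 12), below Fosb in 12 of 12. Each of the 10 genes was thus detected in every library, 5 days after embedding in collagen.

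Within the FOS genes, Fos held 74.3% ± 7.90 (SD, n = 12) of the summed CPM per kilobase, Fosl2 15.6% ± 4.05, Fosb 7.46% ± 2.56 and Fosl1 2.67% ± 2.60. Within the JUN genes, Jund held 53.2% ± 7.65 (SD, n = 12), Junb 26.3% ± 2.56 and Jun 20.5% ± 5.25. The shares of Fos and Jund moved more with the replicate number than with the hairpin. Fos held 62.0% to 73.7% in the libraries of replicates 1 and 2 and 77.8% to 83.4% in those of replicates 3 and 4, which did not overlap. Its mean shares by group lay closer together, at 74.6% ± 10.1 in the control, 71.5% ± 8.07 with hairpin 1 and 76.9% ± 6.55 with hairpin 2 (SD, n = 4 each). Jund held 47.5% ± 6.94 in replicates 1 and 2 and 58.9% ± 1.76 in replicates 3 and 4 (SD, n = 6 each).

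**Figure D1:**
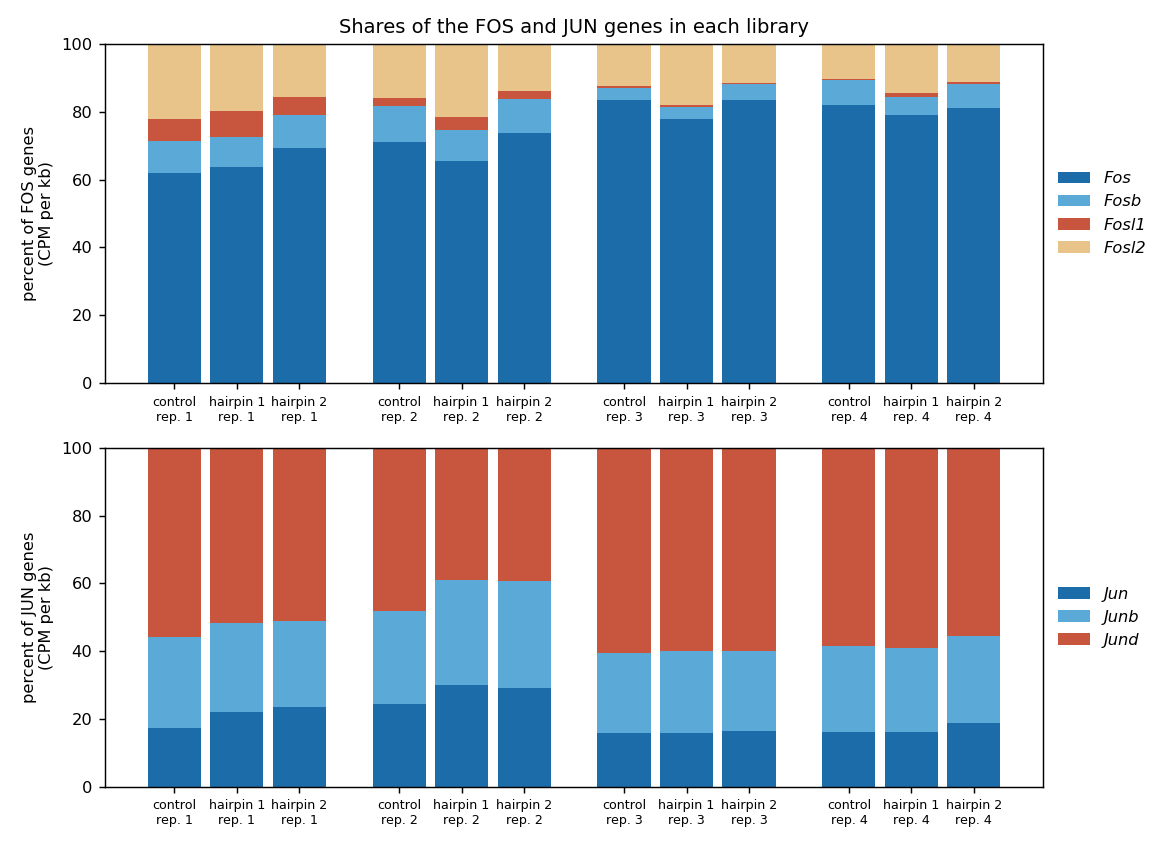
Stacked bars give each gene's percent of the CPM per kilobase summed over the FOS genes (top) and the JUN genes (bottom), 1 bar per library, ordered by replicate number (rep.) and group. Fos holds 62.0% to 83.4% of the FOS sum in each library and Jund 39.0% to 60.5% of the JUN sum.

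The replicate number divided some of the 10 genes sharply. Fosl1, which encodes the late FOS protein linked to invasive growth, stood at 4.73 to 12.5 CPM in replicates 1 and 2 and at 0.791 to 2.74 in replicates 3 and 4, with a mean 4.97-fold higher in the former. Jund went the other way, with 192 to 346 CPM against 411 to 558, and Ier2, a short early response gene, too, with 100.4 to 120 against 148 to 197. These 3 of 10 genes did not overlap between the 2 sets of replicates, beside 18.2% of all tested genes. Fos, Egr1, Junb and Atf3 overlapped between the sets. Mean Fos was 135 CPM in replicates 1 and 2 and 232 in replicates 3 and 4. Atf3, a stress-induced factor, had 21.5 CPM in replicates 1 and 2 and 15.0 in replicates 3 and 4. The labels do not say what the numbers stand for, and each group holds both sets in equal number. Of 12 macrophage markers 9 were higher in every library of replicates 1 and 2 than in any of replicates 3 and 4, where C1qb was at 0 throughout. The 12 summed to 248 to 375 CPM in replicates 1 and 2 and 148 to 294 in replicates 3 and 4, most of it Cd14 (192 to 264 and 126 to 292 CPM). Without Cd14 the other 11 summed to 33.1 to 125 CPM and 2.27 to 21.8 CPM. Lymphocyte markers summed to 3.31 to 8.32 and 0.0461 to 0.704 CPM, with Cd79b and Nkg7 at 0 in replicates 3 and 4. The part of these cells in the Fosl1 difference was not tested. Exons of Fosl1 overlap Ccdc85b on the other strand, those of Junb overlap Prdx2, and those of Jun and Jund antisense genes. The strand setting of the counting is not given in the sources used here, so reads of these partners cannot be told apart.

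Both hairpins together were compared with the control first. Of the 10 genes 0 passed in edgeR, beside 1.79% of all tested genes (0.84% higher and 0.946% lower). With an unadjusted p under 0.05 there were 5 (Fosl1, Fosl2, Jun, Egr1 and Atf3), all higher, beside 17.2% of all genes in either direction and 8.31% higher. DESeq2 called 1 (Egr1), beside 8.07% of the genes to which it gave an adjusted p, and limma-voom 0, beside 1.78%. Higher in all 8 pairs of a hairpin and a control library with the same number were 0 of 10, beside 3.72% of all genes. The log2 fold change was positive for 9 of 10, beside 49.4% of all genes, with a median of 0.17 over the 10 and -0.0024 over all. Egr1 had the smallest p at 0.38 (SE 0.09, log2; edgeR adjusted p = 0.0631), and 7 of its 8 pairs were higher. Fosl1 was at 0.44 (SE 0.18; edgeR adjusted p = 0.239), Fosl2 and Jun at 0.23 (SE 0.09 each; 0.222 and 0.221) and Atf3 at 0.20 (SE 0.08; 0.248). Fos, Fosb, Junb, Jund and Ier2 lay between -0.09 and 0.13 with edgeR adjusted p of 0.706 to 0.934. Of the 10 genes 0 had hairpin libraries that lay all above or all below the controls, beside 0.358% of all genes.

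**Figure D2:**
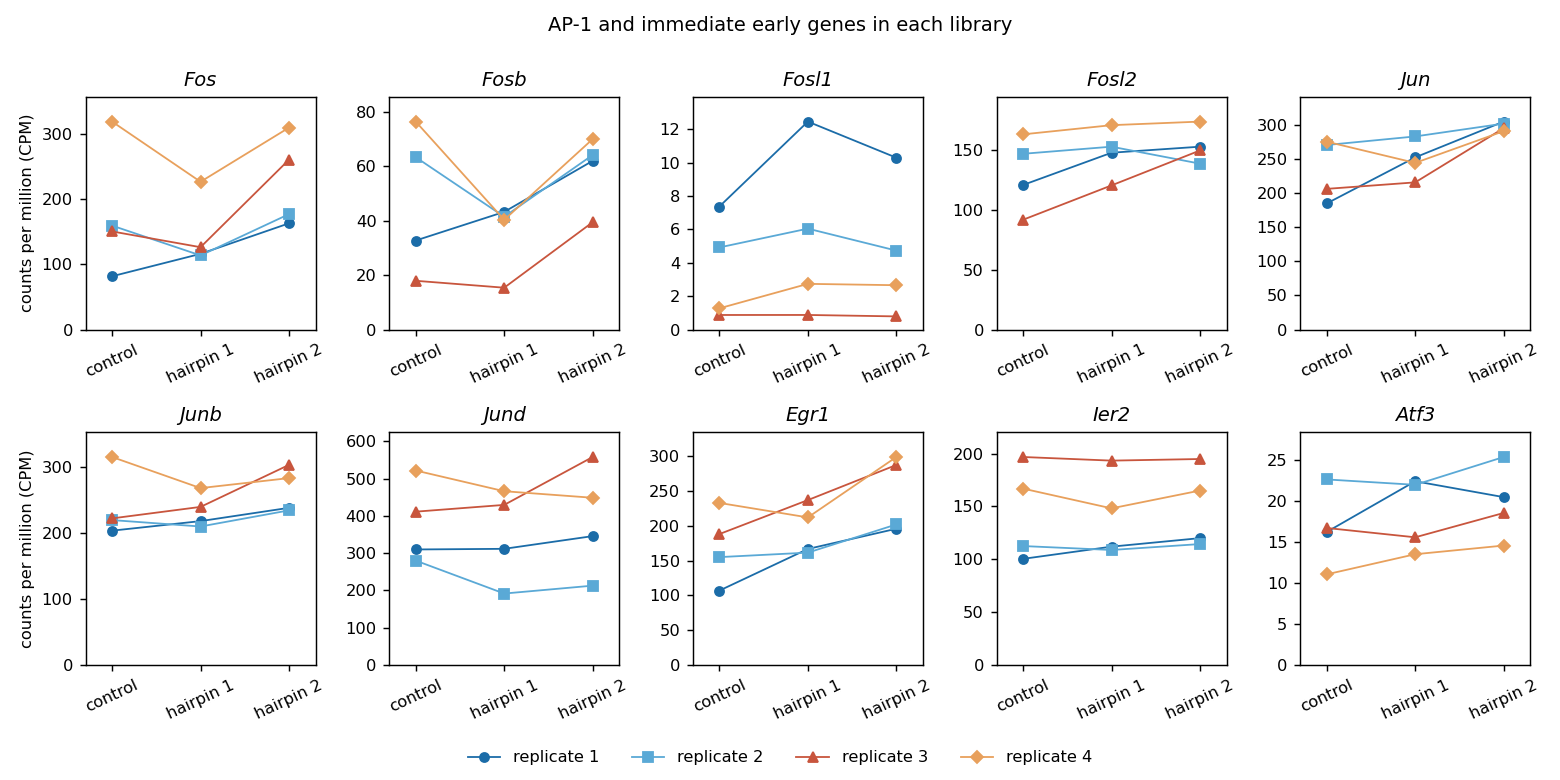
CPM of each gene (vertical axis from 0, its own scale per panel) in the control, hairpin 1 and hairpin 2 groups, with lines joining the libraries of 1 replicate number. Egr1 and Jun are higher with hairpin 2 than in the control in each replicate, while Fosl1 keeps replicates 1 and 2 (4.73 to 12.5 CPM) above replicates 3 and 4.

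Egr1 carried the clearest difference, and it lay with hairpin 2. Its control libraries stood at 107, 155, 188 and 233 CPM in replicates 1 to 4. With hairpin 1 it stood at 167, 162, 237 and 212 CPM. With hairpin 2 it stood at 196, 202, 288 and 299 CPM. Hairpin 2 was thus higher than the control and than hairpin 1 within each replicate number, although the groups overlapped across numbers, the highest control library (233) lying above the 2 lowest of hairpin 2. Egr1 rose by 0.55 (SE 0.10, log2), or 1.46-fold, with hairpin 2 against the control (edgeR adjusted p = 0.0167; 4 of 4 pairs higher). With hairpin 1 it was at 0.22 (SE 0.10; edgeR adjusted p = 0.419; 3 of 4 pairs). The comparisons with the control share the control libraries. The difference of hairpin 2 minus hairpin 1 was 0.33 (SE 0.10; edgeR adjusted p = 0.115; 4 of 4 pairs higher). That difference passed in DESeq2 (adjusted p = 0.0416) and with only the 2 hairpin groups in the edgeR fit (0.0398). The call with hairpin 2 did not hold when 1 of 3 libraries was removed: control replicate 3, or replicate 1 or 4 of hairpin 2 (edgeR adjusted p = 0.0608, 0.0552 and 0.0514). It was also lost when replicate 1 or 3 was removed from every group (edgeR adjusted p = 0.0638 and 0.0704), when hairpin 1 was left out of the fit (0.0679), and without the replicate number in the model (0.53, SE 0.24; adjusted p = 1). Egr1 with hairpin 2 also did not pass in replicates 1 and 2 alone, at 0.61 (SE 0.13), or in replicates 3 and 4 alone, at 0.50 (SE 0.14).

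In that comparison of hairpin 2 with the control, 1 of 10 genes passed, beside 5.76% of all tested genes (2.83% higher and 2.93% lower). With an unadjusted p under 0.05 there were 5 (Fos, Fosl2, Jun, Egr1 and Atf3), all higher, beside 22.6% in either direction and 11.4% higher. The log2 fold change was positive for 9 of 10, beside 50.8% of all genes. The median log2 fold change of the 10 was 0.30, and that of all genes 0.0044. DESeq2 called 3, Egr1, Fos and Jun, beside 12.4% of the genes to which it gave an adjusted p, and limma-voom 1, beside 5.48%. Jun, the founding JUN gene, was the only 1 of 10 whose hairpin 2 libraries lay wholly above the control, beside 2.1% of all genes whose groups did not overlap. Its levels were 185, 271, 206 and 275 CPM in control replicates 1 to 4, and 305, 302, 295 and 291 CPM with hairpin 2. The SD was 6.34 CPM over the 4 hairpin 2 libraries and 45.6 CPM over the 4 controls. Jun was also the only 1 of 10 whose libraries did not overlap between the hairpins, beside 2.4% of all genes. Jun was at 0.36 (SE 0.10, log2; edgeR adjusted p = 0.0692) with hairpin 2 and passed without control replicate 4 (0.46; edgeR adjusted p = 0.0439). With hairpin 1 it stood at 252, 283, 216 and 244 CPM, inside the range of the control but for 1 library, with a difference of 0.09 (SE 0.10; edgeR adjusted p = 0.763). Jun, Egr1 and Atf3 were higher with hairpin 2 in 4 of 4 pairs, 3 of 10 genes beside 12.6% of all.

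Markers of some other cell types were also higher with hairpin 2 than in the control, where 2.83% of all tested genes passed as higher. Of 10 fibroblast markers 3 passed as higher, of 10 pericyte and smooth muscle markers 6 and of 10 basal epithelial markers 4. These counts ran from 0 to 5, 2 to 6 and 1 to 6 when a library or a replicate number was left out, and were 0, 0 and 0 without the replicate number in the model. With hairpin 1, 0 of each list passed, but 3, 7 and 3 had an unadjusted p under 0.05, beside 12.8% of all genes. The medians were 0.14, 0.48 and 0.38 (log2) with hairpin 1 and 0.68, 0.94 and 0.69 with hairpin 2. Over both hairpins 1, 4 and 2 passed as higher, beside 0.84% of all genes. Between the hairpins 1, 0 and 1 did, beside 1.57%. Summed fibroblast markers ran from 838 to 6184 CPM in the control, 986 to 7776 with hairpin 1 and 2621 to 13712 with hairpin 2. Pericyte and smooth muscle markers summed to 355 to 618, 485 to 894 and 491 to 1044 CPM, and basal markers to 1367 to 4138, 1596 to 3641 and 2866 to 3575 CPM, with no marker at 0 throughout a group. With hairpin 2 against the control, macrophage (12 tested), lymphocyte (9) and endothelial (8) markers had 0 genes past the threshold in edgeR. At an unadjusted p under 0.05 there were 0, 0 and 2, beside 22.6% of all genes. Their log2 fold changes were positive for 3, 2 and 6 genes, beside 50.8% of all genes, with medians of -0.48, -0.90 and 0.30. Of 10 luminal markers Epcam alone passed as lower (-0.34, SE 0.06, log2), beside 2.93% of all genes. Of the pericyte and smooth muscle markers that passed with hairpin 2, Cnn1, Myh11 and Tagln are also expressed by basal (myoepithelial) cells of the mammary gland. That list therefore does not tell pericytes and smooth muscle apart from basal epithelium. The part of any of these cell types in the Egr1 and Jun values was not tested.

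With hairpin 1 against the control 0 of 10 genes passed in edgeR, beside 0.728% of all tested genes (0.382% higher and 0.347% lower). DESeq2 called 0, beside 4.22% of the genes to which it gave an adjusted p, and limma-voom 0, beside 0.687%. Fosl1 alone had an unadjusted p under 0.05, 1 of 10 beside 12.8% of all genes in either direction and 6.18% higher. The log2 fold change was positive for 5 of 10, beside 49.5% of all genes, and in 0 of 10 did the libraries of the groups not overlap, beside 1.19%. The median log2 fold change of the 10 was 0.04. Fosl1 stood at 7.37, 4.92, 0.875 and 1.27 CPM in control replicates 1 to 4, at 12.5, 6.05, 0.877 and 2.74 with hairpin 1 and at 10.3, 4.73, 0.791 and 2.66 with hairpin 2. With both hairpins it was higher than the control in replicates 1 and 4, while in replicate 3 the groups lay between 0.791 and 0.877. Fosl1 was at 0.54 (SE 0.20, log2; edgeR adjusted p = 0.297) with hairpin 1 and 0.34 (SE 0.20; 0.362) with hairpin 2. Fosl2, its longer relative, was higher in 4 of 4 pairs with hairpin 1, as was Fosl1, 2 of 10 genes beside 11.8% of all. It was at 0.19 (SE 0.10; edgeR adjusted p = 0.480) with hairpin 1 and 0.26 (SE 0.10; 0.163) with hairpin 2.

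**Figure D3:**
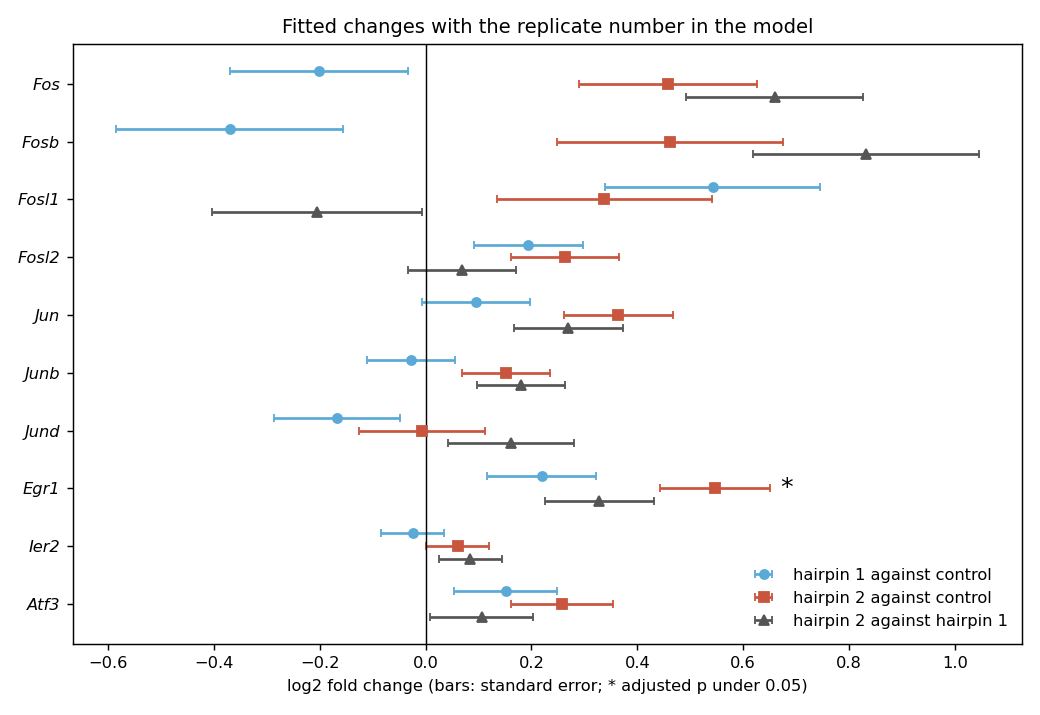
Fitted log2 fold change (horizontal axis) with its standard error for each gene in 3 comparisons, with the replicate number in the model. Egr1 with hairpin 2 (0.55) is the 1 value past the adjusted threshold, and Fos and Fosb have opposite signs with hairpin 1 (-0.20 and -0.37) and hairpin 2 (0.46 each).

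The 2 hairpins were set against each other directly. Of the 10 genes 0 passed in edgeR, beside 3.44% of all tested genes (1.57% higher and 1.87% lower). With an unadjusted p under 0.05 there were 4 (Fos, Fosb, Jun and Egr1), all higher with hairpin 2, beside 20.1% in either direction and 10.7% higher. The log2 fold change was positive for 9 of 10, beside 51.6% of all genes. DESeq2 called 3, Fos, Fosb and Egr1, beside 9.76% of the genes to which it gave an adjusted p, and limma-voom 0, beside 3.04%. Hairpin 2 was higher in 4 of 4 pairs for 6 of 10 genes (Fos, Fosb, Jun, Junb, Egr1 and Ier2), beside 15.6% of all genes, and lower in 4 of 4 for Fosl1, beside 14.9%. For Ier2 the difference in replicate 3 was only 0.011 (log2 CPM). The 6 genes varied together, so they are not 6 separate observations. Fos stood at 81.8, 160, 151 and 319 CPM in control replicates 1 to 4, at 116, 114, 126 and 227 with hairpin 1 and at 163, 177, 261 and 310 with hairpin 2. Within each replicate hairpin 1 was the lowest group except in replicate 1, where the control was. Fos with hairpin 2 minus hairpin 1 was 0.66 (SE 0.17, log2), or 1.58-fold (edgeR adjusted p = 0.0637). It was -0.20 (SE 0.17; edgeR adjusted p = 0.680) for hairpin 1 and 0.46 (SE 0.17; 0.140) for hairpin 2 against the control.

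Fosb, a close relative of Fos, had the largest difference of the 10 between the hairpins. It stood at 32.7, 63.3, 17.9 and 76.4 CPM in control replicates 1 to 4, at 43.2, 41.5, 15.4 and 40.3 with hairpin 1 and at 62.0, 64.2, 39.5 and 70.0 with hairpin 2. The order of the groups matched that of Fos in each replicate number. Hairpin 2 minus hairpin 1 was 0.83 (SE 0.21, log2), or 1.78-fold (edgeR adjusted p = 0.0651). The values were -0.37 (SE 0.21; edgeR adjusted p = 0.527) for hairpin 1 and 0.46 (SE 0.21; 0.232) for hairpin 2 against the control. With only the libraries of the 2 hairpins in the fit, the difference between hairpins passed for Fos (0.65, SE 0.10; edgeR adjusted p = 0.0260), Fosb (0.82, SE 0.13; 0.0298) and Egr1 (0.33, SE 0.06; 0.0398). It also passed for Fos without control replicate 1 (edgeR adjusted p = 0.0266) and for Fosb without control replicate 4 (0.0436).

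Junb, Jund, Ier2 and Atf3 did not pass in any comparison and had log2 differences of -0.17 to 0.26. Ier2 stood at 100.4 to 197 CPM in the control, 109 to 193 with hairpin 1 and 114 to 195 with hairpin 2, and its differences lay between -0.02 and 0.08 (SE 0.05 to 0.06, log2). It had the smallest spread of the 10 between groups within a replicate number, an SD of 0.083 (log2 CPM) beside 0.53 for Fosb. Junb, which can restrain JUN activity, stood at 204 to 315, 210 to 268 and 234 to 303 CPM in the control, hairpin 1 and hairpin 2 groups, and Jund at 280 to 522, 192 to 466 and 213 to 558. Jund was at -0.17 (SE 0.12; edgeR adjusted p = 0.614) with hairpin 1 and -0.01 (SE 0.12; 0.982) with hairpin 2, and the latter sign turned with library totals or upper-quartile scaling (0.040 and 0.0056). Atf3 stood at 11.0 to 22.6, 13.5 to 22.4 and 14.5 to 25.3 CPM in the 3 groups. Atf3 was at 0.15 (SE 0.10; edgeR adjusted p = 0.573) with hairpin 1 and 0.26 (SE 0.10; 0.149) with hairpin 2.

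Within replicate numbers, most pairs of the 10 genes varied in the same direction. Pairs with and without Fosl1 are given apart, a split made on these same data. After the mean of each replicate number was subtracted from log2 CPM, the 36 pairs of genes without Fosl1 all had a positive Pearson r over the 12 libraries, from 0.049 (Jund and Atf3) to 0.97 (Fos and Fosb), with a median of 0.69. Jun and Egr1 reached 0.93 and Fosb and Junb 0.90, while Jund had only 0.23 with Egr1 and 0.26 with Ier2. Of the 9 pairs with Fosl1, 4 were positive, led by Atf3 at 0.69, and the median was -0.048. These values describe 12 libraries that share scaling and, in sets of 3, a replicate number, and carry no p. The same values were not computed over all pairs of tested genes, so they show no trait particular to the 10.

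**Figure D4:**
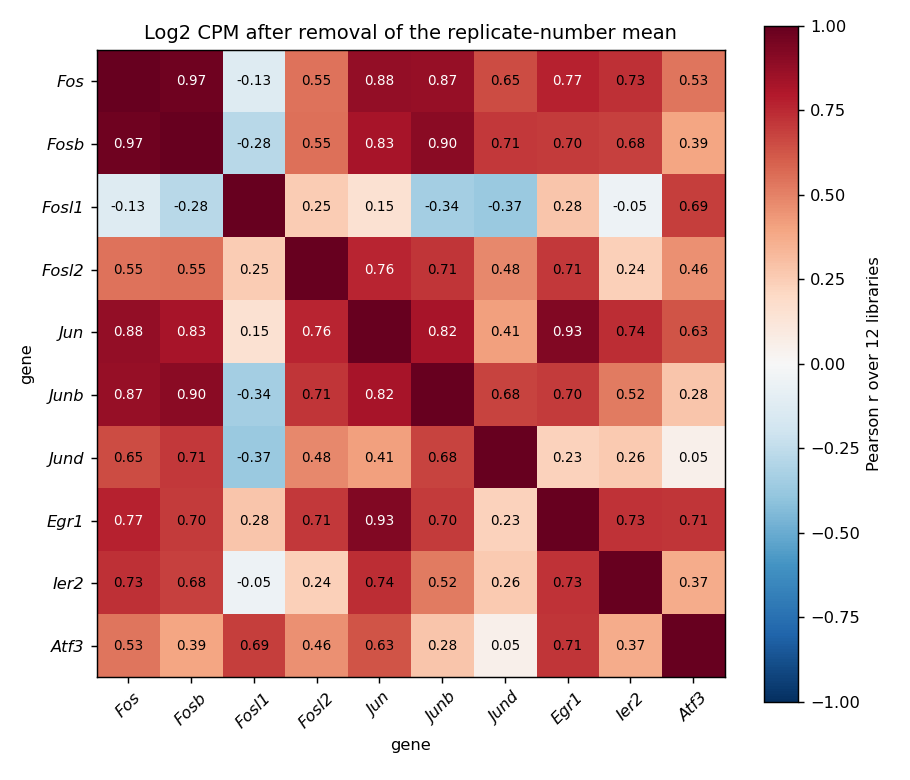
Pearson r between each pair of genes over the 12 libraries, on log2 CPM after subtraction of the replicate-number mean (colour scale from -1 to 1). Fos, Fosb, Jun, Junb and Egr1 form a block of 0.70 to 0.97, and the Fosl1 row is near or below 0 except with Atf3 (0.69), Egr1 (0.28), Fosl2 (0.25) and Jun (0.15).

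By the same measure, the genes among the other 17015 most like Fos were Tmod4, a tropomodulin that caps actin filaments (r = 0.957), the antiproliferative gene Btg2 (0.953) and Dusp1, a phosphatase of MAP kinases (0.948). When Spearman's rho was used in place of r, 1 of these 3 stayed among the 3 first. Most like Fosl1 were Lyrm1 (0.957), Troap (0.955) and E130304I02Rik (0.955), and most like Atf3 A830039N20Rik (0.957), Susd2 (0.956) and the transcription factor Fli1 (0.955). By rho 2 of the 3 stayed for Fosl1 and 0 for Atf3. These r values are the highest picked from 17015 genes over 12 libraries, and the first was 0.957 for each of Fos, Fosl1 and Atf3. They therefore show no link particular to the genes named.

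Other genes of the pathway, from lists chosen for their known roles but with earlier results of these data known, gave few calls each. Of 26 tested MAP kinases and regulators of SRF and ELK, 1 passed over both hairpins, beside 1.79% of all tested genes. Mapk8, which encodes the JUN kinase JNK1, rose. It stood at 17.3, 21.1, 19.5 and 18.2 CPM in control replicates 1 to 4, at 25.6, 25.8, 24.6 and 22.2 with hairpin 1 and at 24.6, 25.3, 24.6 and 24.7 with hairpin 2. All 8 hairpin libraries lay above all 4 controls, which held for 0 of the 10. Of all genes 0.358% had groups that did not overlap in either direction. Mapk8 rose by 0.38 (SE 0.06, log2) over both hairpins, by 0.37 (SE 0.07) with hairpin 1 and by 0.39 (SE 0.07) with hairpin 2 (edgeR adjusted p = 0.0187, 0.0474 and 0.0140). Over both hairpins the call held in 10 of 16 fits that left out a library or a replicate number, with edgeR adjusted p up to 0.152. It was lost without control replicate 1, 3 or 4 (edgeR adjusted p = 0.0872, 0.0575 and 0.0759) and without replicate 1, 3 or 4 of every group (0.152, 0.0517 and 0.0987). With hairpin 2 it held in 12 of the 16, and did not hold when control replicate 1 or replicate 4 of hairpin 2 was removed (0.0541 and 0.0532) and without replicate 1 or 4 of every group (0.0961 and 0.0726). It was also lost with only hairpin 2 and the control in the fit (edgeR adjusted p = 0.107), in replicates 1 and 2 alone (0.209) and in replicates 3 and 4 alone (0.144). With hairpin 1 the call held in 1 of the 16, that without hairpin 2 replicate 3, with adjusted p up to 0.354 in the others. Without the replicate number in the model it did not pass (edgeR adjusted p = 0.836 over both hairpins). From the same list the SRF coactivator Mrtfa rose with hairpin 2 (0.37, SE 0.09), so that 2 of 26 passed there, beside 5.76% of all genes. Between the hairpins 3 of 26 passed, beside 3.44% of all. Mrtfb (0.36, SE 0.07) and the kinase Braf (0.32, SE 0.07) were higher with hairpin 2 and the p38 kinase Mapk11 lower (-0.76, SE 0.15).

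Of all tested genes 1.79% passed over both hairpins, 0.728% with hairpin 1, 5.76% with hairpin 2 and 3.44% between the hairpins. Of 44 other immediate early genes 0 passed over both hairpins or with hairpin 1. An unadjusted p under 0.05 was found for 12 of 44 over both hairpins, 8 with hairpin 1, 19 with hairpin 2 and 14 between hairpins, beside 17.2%, 12.8%, 22.6% and 20.1% of all genes. With hairpin 2 the log2 fold change was positive for 32 of 44, beside 50.8% of all genes, and 3 rose: the nuclear receptor Nr4a2 (0.54, SE 0.12, log2), the RNA decay factor Zfp36l1 (0.42, SE 0.10) and the kinase Sik1 (0.68, SE 0.17). Between the hairpins Nr4a2 (0.57, SE 0.12) and Btg2 (0.39, SE 0.09) were higher with hairpin 2 and Tiparp lower (-0.43, SE 0.10). The list's median was 0.12 with hairpin 2 and 0.04 with hairpin 1. Of 12 other AP-1 partner and MAF genes, Jdp2, a repressor that pairs with JUN proteins, rose over both hairpins (0.31, SE 0.06) and with hairpin 1 (0.39, SE 0.07). The large MAF factor Maf rose over both hairpins (0.74, SE 0.15) and with hairpin 2 (0.90, SE 0.17), and Mafk was lower with hairpin 2 than with hairpin 1 (-0.37, SE 0.08). Of 12 ERK feedback genes, the ERK phosphatase Dusp5 rose over both hairpins (0.50, SE 0.11) and with hairpin 2 (0.58, SE 0.12). The ETS factor Etv5 was lower with hairpin 2 than in the control (-0.49, SE 0.10) and than with hairpin 1 (-0.48, SE 0.10). Between the hairpins 3 of the 12 ERK feedback genes had a positive value, beside 51.6% of all genes, with a median of -0.12.

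Of 24 classical AP-1 targets, 0 passed over both hairpins or with hairpin 1. There 4 and 5 had an unadjusted p under 0.05, beside 17.2% and 12.8% of all genes. With hairpin 2, 1 rose, the fibronectin receptor subunit Itga5 (0.91, SE 0.23), beside 2.83% of all genes. The log2 fold changes of the 24 targets were positive for 21 over both hairpins, beside 49.4% of all genes, with a median of 0.23. They were positive for 20 with hairpin 1 and 17 with hairpin 2. Between the hairpins 10 of 24 were positive, beside 51.6% of all genes, with a median of -0.062. Of 10 heat shock genes 0 passed in any comparison. At an unadjusted p under 0.05 there were 1, 0, 1 and 0 over both hairpins, with hairpin 1, with hairpin 2 and between hairpins. The shares of all genes there were 17.2%, 12.8%, 22.6% and 20.1%. Of 12 genes of the ATF4-CHOP stress response, to which Atf3 also belongs, Nupr1 fell over both hairpins (-0.25, SE 0.05), beside 0.946% of all genes. Ddit4 (-0.32, SE 0.07) and Nupr1 (-0.27, SE 0.06) fell with hairpin 2, beside 2.93% of all genes. The edgeR adjusted p of all named genes in these lists other than Mapk8 lay between 0.0168 and 0.0491, and none of these 23 calls held in the model without the replicate number. Over the 16 fits that left out a library or a replicate number, these calls held in a median of 4 fits, from 1 (Nupr1 over both hairpins) to 14 (Maf with hairpin 2), and 19 of the 23 in fewer than 8.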

How the data were processed

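The labels' protocols describe poly(A) enrichment on oligo(dT) beads and NEBNext Ultra libraries. The table holds whole-number counts of reads per gene, as deposited. Per the submitters' processing notes, FastQC 0.74, Trimmomatic 0.39, DESeq2 1.34.0 and mm10 are named, with no roles stated. The sources used here give no aligner, annotation or strand setting. Genes were filtered with edgeR 4.0.16 filterByExpr (17025 kept), scaled by TMM and tested with glmQLFit and glmQLFTest over all 12 libraries, with replicate number and group in the model. The numbers pair the libraries: deviations from group means correlated at 0.855 to 0.916 for equal numbers in different groups and -0.807 to 0.727 otherwise; the pairing comes from the titles and these correlations. The 10 genes, the lists and the model were chosen with earlier results of these data known. The model without the replicate number is an alternative. Log2 CPM used a prior count of 2. Exon lengths, for CPM per kilobase, are the union of all exons in GENCODE M21 (GRCm38, also called mm10), so genes with long rare exons score lower. DESeq2 1.42.0 and limma 3.58.1 (voom) were other tests. Only the edgeR fit, for both hairpins against the control, was tried on simulated counts, with 2-fold changes. Text names the 10 genes, Cldn7, Ptprc, up to 4 list genes of smallest p past the threshold per comparison, and the 3 genes most like Fos, Fosl1 and Atf3; Krt8, Cd14, the heat shock genes and markers at 0 were added after their values were seen. Sequences come from RefSeq.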

Additional observations from a re-analysis of the deposited data

Results flagged for a closer look

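Among 30 sets of 4 libraries (10 genes in 3 groups), 2 held a library far from the other 3 on the log2 scale by Dixon's ratio of the gap to the whole range above its 95% critical value. Chance alone gives about 1 such set in 20. Fos with hairpin 1 was high in replicate 4, at 227 CPM against 114 to 126 in the others (ratio 0.848). Fosb with hairpin 1 was low in replicate 3, at 15.4 CPM against 40.3 to 43.2 in the others (ratio 0.933). In the control, Fos was also highest in replicate 4 (319 CPM) and Fosb lowest in replicate 3 (17.9 CPM).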

How the results depend on the processing

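Over the log2 fold changes of the 10 genes in the 4 comparisons, 1030 values under alternative settings were computed: 961 kept their direction and side of the threshold, 9 kept the direction but no longer passed, 16 newly passed and 44 changed sign, all of these for genes and comparisons that did not pass. Causes were not tested, except that fewer samples or genes enter some fits by construction. Comparisons are given in the order both hairpins, hairpin 1, hairpin 2 (each against control) and hairpin 2 against hairpin 1.

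Without the replicate block, genes called fell from 304, 124, 981 and 585 to 1, 1, 1 and 1, and the 1 of the 10 genes called with hairpin 2 to 0; Fosb over both hairpins was at -0.066 and Jund with hairpin 2 at 0.039. With DESeq2, genes called were 1161, 607, 1860 and 1436, and the 10 genes gave 1, 0, 3 and 3. Replicates 1 and 2 alone gave 25, 9, 82 and 84 genes, replicates 3 and 4 alone 5, 1, 327 and 42, and both gave 0 of the 10 with hairpin 2. With only the compared groups in the fit, hairpin 1 gave 390 genes and hairpin 2 gave 97, with 0 of the 10 called for hairpin 2 and 3, beside 504 genes, between hairpins. With no filter on low counts, 1, 0, 2 and 2 of the 10 were called, beside 393, 152, 1041 and 644 genes of 24262. Leaving out a library or a replicate number gave 26 to 554, 1 to 344, 185 to 1076 and 66 to 672 genes, and 0, 0, 0 to 2 and 0 to 1 of the 10.

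Signs changed for Fosb over both hairpins with limma-voom (-0.0041) and in replicates 3 and 4 (-0.043). Jund with hairpin 2 was at 0.0056 with upper-quartile factors, 0.040 with library totals, 0.0064 without the filter and 0.14 in replicates 3 and 4. In replicates 1 and 2, Junb and Ier2 with hairpin 1 were at 0.019 and 0.056, and Fosl2 between hairpins at -0.050. In replicates 3 and 4, Jund and Ier2 over both hairpins were at 0.048 and -0.037, and Jun with hairpin 1 at -0.040. Leave-one-out ranges that crossed 0 were, over both hairpins, -0.057 to 0.28 for Fos, -0.14 to 0.28 for Fosb, -0.043 to 0.067 for Ier2, -0.0059 to 0.16 for Junb and -0.19 to 0.054 for Jund. With hairpin 1 they were -0.079 to 0.041 for Ier2, -0.014 to 0.20 for Jun and -0.091 to 0.063 for Junb. With hairpin 2 they were -0.0059 to 0.10 for Ier2 and -0.16 to 0.13 for Jund, and between hairpins -0.052 to 0.16 for Fosl2. Without length scaling, shares of the FOS genes were 47.0% for Fos, 12.2% for Fosb and 39.4% for Fosl2, and of the JUN genes 30.2% for Jun and 41.7% for Jund. Depth limits Fosl1 most, with 57 to 419 counts per library.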

Other observations

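Of 10 heat shock genes 6 were higher in every library of replicates 1 and 2 than in any of replicates 3 and 4, beside 18.2% of all genes that did not overlap in either direction. Hspd1, Hspe1, Dnajb1 and Hsph1 overlapped. The summed level of the 10 was 3771 to 4075 CPM in replicates 1 and 2 and 1147 to 1697 CPM in replicates 3 and 4 over all groups, of which Hspa8 alone made up 1147 to 1405 and 181 to 334 CPM. Hspa1a, an inducible chaperone of the stress response, stood at 363 to 503 CPM in replicates 1 and 2 and at 23.4 to 30.6 in replicates 3 and 4. Hspa1b, a near-identical neighbour, so that the split of reads between them is uncertain, stood at 570 to 764 and 91.1 to 122 CPM.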
